A study of Mus musculus with 3 samples.

Results

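Ttr, Enpp2 and Folr1, genes best known from the choroid plexus, were followed through the splicing tables of 3 mouse hippocampi. They were picked by symbol, with their values in these data known, and every splicing event listed under the 3 symbols was taken. This gave 3 of 4860 genes and 9 of 8727 events, with 2 events in Ttr, 3 in Enpp2 and 4 in Folr1. Of these 9 events, 5 had counts for all 3 libraries, the 2 of Ttr and the 3 of Enpp2.

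All 3 mice were wild-type C57BL/6J males of 10 weeks that had been injected with a viral vector, AAV9 (an adeno-associated virus), in both dorsal hippocampi. The vector placed 10 or 300 CUG repeats, the repeat RNA of myotonic dystrophy type 1, in an Egfp transcript. The CUG10 + vehicle mouse received the short repeat, the CUG300 + vehicle mouse the long repeat, and the CUG300 + CWG-cPIP mouse the long repeat mixed with CWG-cPIP, a cyclic pyrrole-imidazole polyamide that binds CAG/CTG repeat DNA. Every group carried a virus and an injection, so none is an untreated hippocampus, and each group was 1 mouse, so each interval below is a 95% interval for counting error and a difference compares libraries rather than conditions. Where 3 values stand together without names they belong to CUG10 + vehicle, then CUG300 + vehicle, then CUG300 + CWG-cPIP, and this is called library order.

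The choroid plexus is the secretory epithelium of the ventricles that makes cerebrospinal fluid, and the plexus of the lateral ventricle runs alongside the hippocampus. Ttr encodes transthyretin, which this epithelium secretes and which carries thyroid hormone and, with retinol-binding protein, retinol. Enpp2 encodes autotaxin, a secreted enzyme that releases the lipid mediator lysophosphatidic acid, and in brain it is also made by oligodendrocytes. Folr1 encodes folate receptor alpha, by which the plexus moves folate into the cerebrospinal fluid.

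The sequences of 2 alternative Enpp2 segments are shown first, because the splicing differences concern Enpp2 alone. The first is a coding exon of 75 nt, on the minus strand of chromosome 15 at chr15:54851348-54851422 in mm10, which 1 of the 6 coding transcripts of Enpp2 contains in the GENCODE M21 annotation. This exon is the insert of the brain form of autotaxin known as the gamma isoform. The second is an alternative 5′ splice site that adds 12 coding nt to the end of an exon and is used in 3 of the 6 coding transcripts. It is shown as the last 30 nt of the long exon form (chr15:54862498-54862527, minus strand), with the 12 nt in capitals. Both lengths are multiples of 3, so either choice keeps the reading frame.
Enpp2 75-nt exon: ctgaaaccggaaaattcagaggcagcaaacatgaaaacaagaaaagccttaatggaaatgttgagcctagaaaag
Enpp2 12-nt extension: tgcacctgtgatgataagGTAGAGCCAAAG

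The 75-nt exon was also searched, on the transcript strand only, for the words TGCT or CGCT and the words TGCC or CGCC, the DNA spelling of what muscleblind-like splicing factors bind in RNA. It held 0 of them, whereas 38 of 67 other skipped exons of 75 nt (56.7%) held at least 1. A 133-nt exon of Enpp2, described below and close in PSI between the libraries, also held 0. Of other skipped exons of 133 nt, 20 of 21 (95.2%) held at least 1, so the absence is not particular to the 75-nt exon. The search says only that the letters are not in these exons, since the introns beside them were not searched.

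Ttr had far more reads in the CUG300 + vehicle library than in the other 2. Its inclusion and skipping counts, summed over both events, were 104 in CUG10 + vehicle, 38435 in CUG300 + vehicle and 63 in CUG300 + CWG-cPIP. As CPM, counts per 1000000 counts of the library, this was 170.6 (139 to 207), 67703 (67028 to 68384) and 112.4 (86.3 to 144). Ttr was the gene with the most counts in CUG300 + vehicle, at 6.77% of all counts, and ranked 1012 and 1505 of 4402 genes in CUG10 + vehicle and CUG300 + CWG-cPIP. The CUG300 + vehicle level was 397-fold (327 to 486) that of CUG10 + vehicle and 603-fold (471 to 784) that of CUG300 + CWG-cPIP. The other 2 libraries differed much less, with CUG300 + CWG-cPIP at 0.659 (0.474 to 0.909) of CUG10 + vehicle. In bulk tissue a change in the number of cells of a type and a change in RNA per cell cannot be told apart.

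Enpp2 was also highest in CUG300 + vehicle, by a smaller factor. Its 3 events summed to 372 counts in CUG10 + vehicle, 2033 in CUG300 + vehicle and 339 in CUG300 + CWG-cPIP. These were 610.3 CPM (550 to 676), 3581 CPM (3427 to 3740) and 604.6 CPM (542 to 673). CUG300 + vehicle therefore stood 5.87-fold (5.25 to 6.57) above CUG10 + vehicle and 5.92-fold (5.28 to 6.66) above CUG300 + CWG-cPIP. The ratio of CUG300 + CWG-cPIP to CUG10 + vehicle was 0.991 (0.853 to 1.15), an interval that takes in 1.

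Folr1 events were listed only for the pair of CUG300 libraries. Here an event appears for a pair only where each library has at least 1 count and the pair shows both forms. Reads of CUG300 + vehicle alone showed both forms of the Folr1 events, so by this rule CUG10 + vehicle had no counts there. The rule was read from the listed events, so this remains an inference and no Folr1 level is given for CUG10 + vehicle. A skipped exon of Folr1 had 33 counts in CUG300 + vehicle and 1 count in CUG300 + CWG-cPIP. On the totals of that pair these were 65.2 CPM (44.9 to 91.5) and 2.06 CPM (0.0522 to 11.5). The ratio of CUG300 + vehicle to CUG300 + CWG-cPIP was 31.6, and with 1 count below the line its interval ran from 5.29 to 1286. All 3 genes were thus higher in the vehicle-treated CUG300 library wherever they could be compared.

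**Figure D1:**
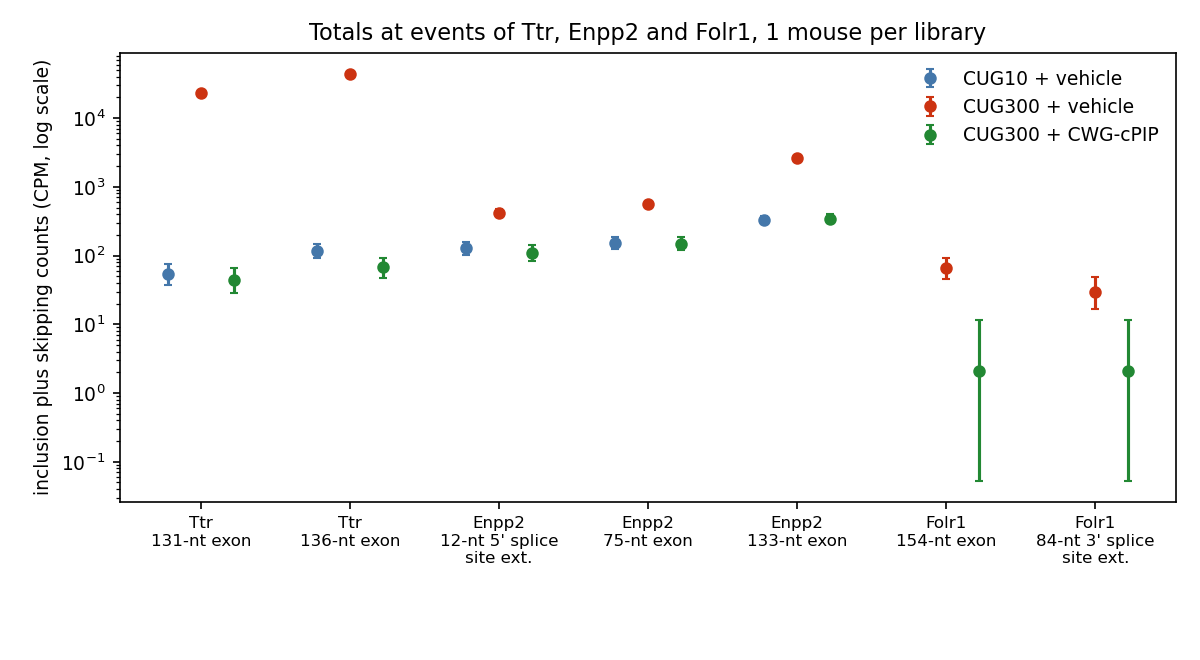
CPM (log axis) at 7 events of Ttr, Enpp2 and Folr1 in the 3 libraries, with 1 mouse per library. Points are inclusion plus skipping counts and bars are exact Poisson 95% intervals. CUG300 + vehicle is highest at every event, most of all at both Ttr events, and the 2 Folr1 events shown have no CUG10 + vehicle value.

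Of all genes that had at least 20 counts over the pair compared, 5.12% were past 2-fold higher in CUG300 + vehicle than in CUG10 + vehicle, Ttr and Enpp2 among them, and 28% were past 2-fold lower. Between CUG300 + CWG-cPIP and CUG300 + vehicle, 6.7% of genes were past 2-fold lower, again with Ttr and Enpp2, and 38.9% were higher. Neither gene was past 2-fold between CUG300 + CWG-cPIP and CUG10 + vehicle, where 10.1% of genes were higher and 1.12% lower. The genes were chosen for these levels, so the shares are the background and support nothing about them.

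The totals also depend on what is held equal between libraries. The median gene moved by -0.47 on the log2 scale from CUG10 + vehicle to CUG300 + vehicle and by 0.69 from there to CUG300 + CWG-cPIP. When the libraries were scaled by median-of-ratios size factors, which set the typical gene equal, the CUG300 + vehicle to CUG10 + vehicle ratio was 573 for Ttr and 8.47 for Enpp2. The same scaling put CUG300 + CWG-cPIP at 0.847 (0.729 to 0.984) of CUG10 + vehicle for Enpp2, an interval that does not take in 1.

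In counts per nt of the 2 forms and per 1000000 counts, the order of the genes changed with the library. This scale rests on the deposited form lengths, and the 2 Ttr events differed on it within each library, so it compares genes only roughly. In CUG10 + vehicle the Ttr events had 0.264 and 0.555 counts on this scale, below the 3 Enpp2 events at 1.44 to 1.63. CUG300 + CWG-cPIP showed the same order, with 0.218 and 0.323 for Ttr and 1.33 to 1.72 for Enpp2. In CUG300 + vehicle the Ttr events reached 113.5 and 211.8, above Enpp2 at 5.01 to 12.8, and the Folr1 skipped exon came to 0.304.

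Splicing of Ttr gave almost 1 form only. Ttr lies on the plus strand of chromosome 18 and has 1 annotated transcript in GENCODE M21. Its 131-nt coding exon (chr18:20666456-20666586) had 33, 13205 and 25 inclusion counts in library order, against 0, 1 and 0 skipping counts. The skipping form of this event joins the first exon to the last and so leaves out the 136-nt exon as well. The 136-nt coding exon (chr18:20669979-20670114) had 71, 25220 and 38 inclusion counts and 0, 9 and 0 skipping counts. The length of neither exon is a multiple of 3, so leaving 1 out shifts the frame, while leaving both out keeps it.

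The percent spliced in (PSI, the share of the including form after division by form length) of the 136-nt exon was 0.999 (0.998 to 0.9995) in CUG300 + vehicle. Skipping reads made up 0.0357% (0.0163 to 0.0677, exact binomial) of the event there. With 71 and 38 counts and no skipping, CUG10 + vehicle and CUG300 + CWG-cPIP allow skipping shares of up to 4.23% and 7.89% when the limit is set at 3 counts of the total, or 5.06% and 9.25% by the exact binomial interval. A skipping share like that of CUG300 + vehicle was therefore not detectable in them, and the large Ttr difference lay in the amount of the including form.

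Enpp2 did differ in splicing, and it did so at the 75-nt exon. CUG10 + vehicle had 58 inclusion and 36 skipping counts there, CUG300 + vehicle 49 and 270, and CUG300 + CWG-cPIP 47 and 37. The PSI values were 0.444 (0.342 to 0.555), 0.083 (0.061 to 0.109) and 0.387 (0.286 to 0.4996), with the CUG300 + vehicle interval apart from both others. CUG300 + vehicle lay below CUG10 + vehicle by a PSI difference of -0.362 (-0.467 to -0.260). CUG300 + CWG-cPIP lay above CUG300 + vehicle by 0.304 (0.205 to 0.411). Between CUG300 + CWG-cPIP and CUG10 + vehicle the difference was -0.058 (-0.198 to 0.086), an interval that takes in 0 and also differences as large as its lower bound.

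**Figure D2:**
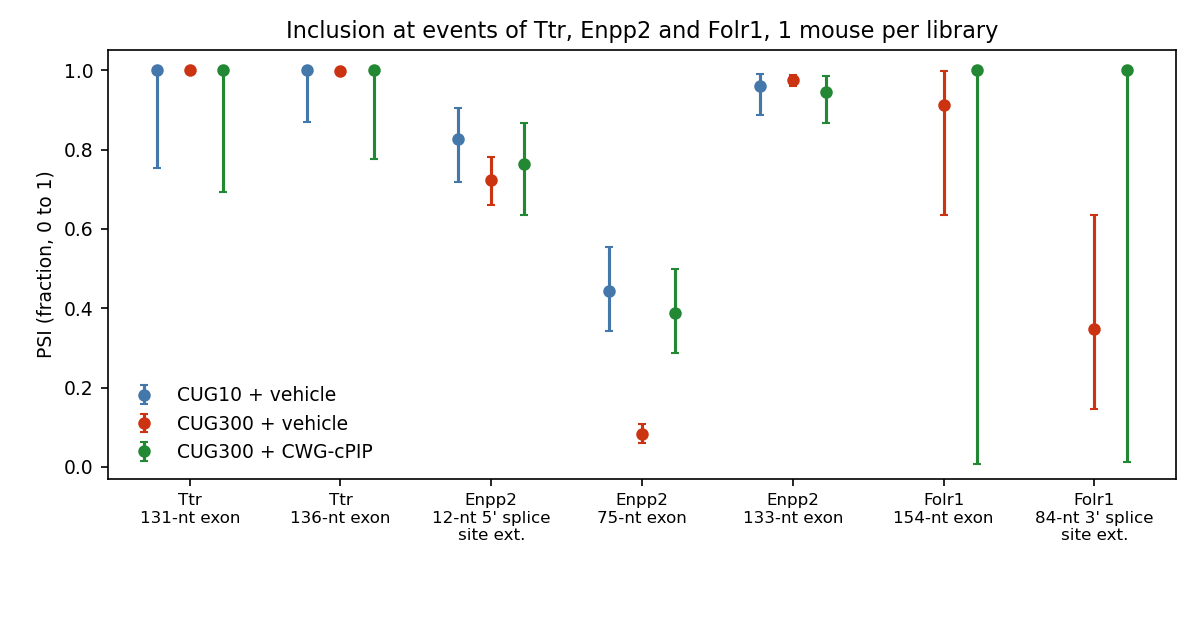
PSI (fraction, 0 to 1) of 7 events of Ttr, Enpp2 and Folr1 in the 3 libraries, with 1 mouse per library. Bars are 95% Clopper-Pearson intervals carried through the length correction. Only at the Enpp2 75-nt exon does the CUG300 + vehicle interval (0.061 to 0.109) lie apart from those of both other libraries, and the Folr1 values of CUG300 + CWG-cPIP rest on 1 count.

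The 2 forms of this exon did not move alike. Inclusion reads were at 95.2 CPM (72.3 to 123), 86.3 CPM (63.9 to 114) and 83.8 CPM (61.6 to 111) in library order, with overlapping intervals. Skipping reads were at 59.1 CPM (41.4 to 81.8), 476 CPM (421 to 536) and 66.0 CPM (46.5 to 91.0). The CUG300 + vehicle library thus held 8.05 times (5.67 to 11.7) the skipping reads of CUG10 + vehicle and 0.907 times (0.607 to 1.35) its inclusion reads. With size factors these ratios were 11.6 (8.19 to 17.0) for skipping and 1.31 (0.877 to 1.95) for inclusion, so the direction of the inclusion ratio turned with the scaling, and both of its intervals took in 1. The lower PSI went with more reads of the form without the exon, while a lower amount of the form with it was not detectable at this depth.

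**Figure D3:**
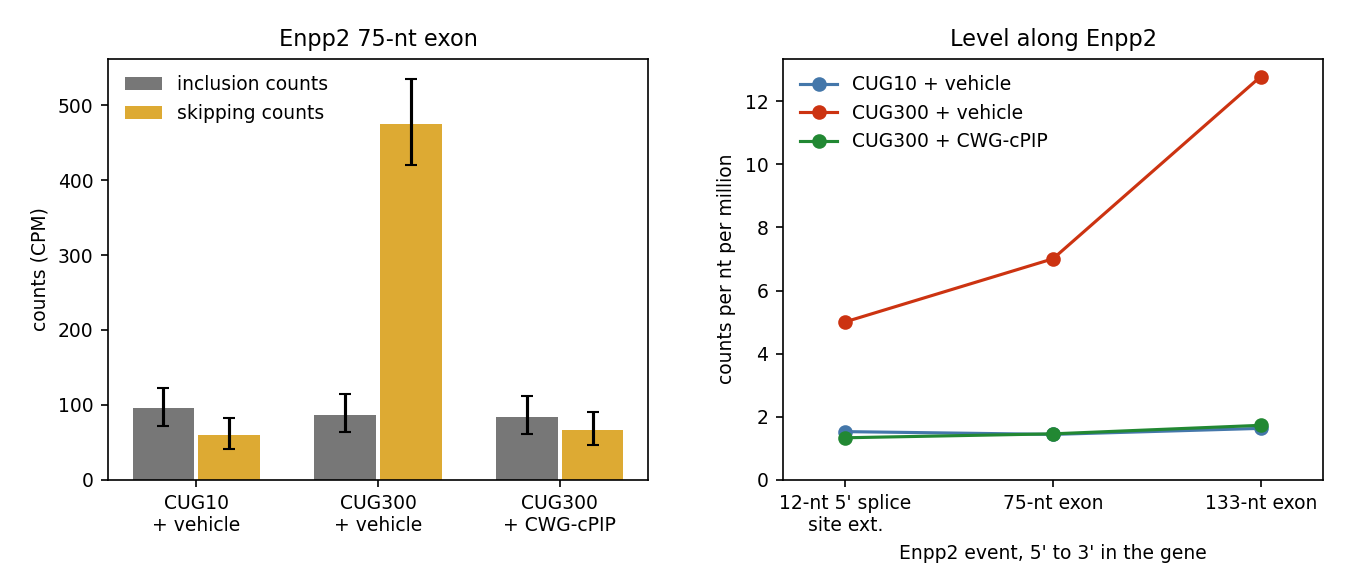
Left, inclusion and skipping counts (CPM) at the Enpp2 75-nt exon in each library, with exact Poisson 95% intervals as bars. Right, inclusion plus skipping counts per nt of form length per 1000000 counts at the 3 Enpp2 events in 5′ to 3′ order. Skipping reads stand at 476 CPM in CUG300 + vehicle against 59.1 and 66.0 CPM, and the level in that library rises from 5.01 to 12.8 along the gene while the other 2 stay between 1.33 and 1.72.

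At the other Enpp2 events the libraries were closer. The 12-nt extension had 66 inclusion and 12 skipping counts in CUG10 + vehicle, 177 and 58 in CUG300 + vehicle, and 49 and 13 in CUG300 + CWG-cPIP. Its PSI was 0.826 (0.717 to 0.906), 0.724 (0.660 to 0.782) and 0.764 (0.634 to 0.867), so CUG300 + vehicle was the lowest of overlapping values. The difference between CUG300 + vehicle and CUG10 + vehicle was -0.101 (-0.196 to 0.017), and that between CUG300 + CWG-cPIP and CUG300 + vehicle was 0.040 (-0.096 to 0.151).

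The third event was a coding exon of 133 nt (chr15:54845813-54845945, minus strand) that 4 of the 6 coding transcripts contain. It was included in nearly all reads, with 197, 1466 and 189 inclusion counts and 3, 13 and 4 skipping counts in library order. Its PSI was 0.959 (0.888 to 0.991), 0.976 (0.959 to 0.987) and 0.944 (0.867 to 0.984). The difference between CUG300 + vehicle and CUG10 + vehicle was 0.017 (-0.015 to 0.089), so a change of the size seen at the 75-nt exon lay outside the interval.

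Of all events with at least 20 counts in both libraries, 5.47% had a PSI more than 0.15 lower in CUG300 + vehicle than in CUG10 + vehicle, as the Enpp2 75-nt exon did, and 2.7% had one more than 0.15 higher. From CUG300 + vehicle to CUG300 + CWG-cPIP, 6.93% were higher by more than 0.15, again with this exon, and 3.04% were lower. The exon was 1 of 3 Enpp2 events in each comparison, and the other 2 stayed within 0.15. From CUG10 + vehicle to CUG300 + CWG-cPIP, 0 of the 3 Enpp2 events moved by more than 0.15, beside 3.98% of all events higher and 3.09% lower.

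The excess of Enpp2 reads in CUG300 + vehicle was not even along the gene. Against CUG10 + vehicle, the total of inclusion and skipping reads was 3.23-fold (2.49 to 4.23) higher at the 12-nt extension, 3.64-fold (2.89 to 4.64) at the 75-nt exon and 7.94-fold (6.85 to 9.25) at the 133-nt exon, the most 3′ of the 3. The log2 ratio of the level per nt at the most 3′ event to that at the most 5′ event was 0.09, 1.35 and 0.38 in library order. Over 465 genes with separate events the median of this log2 ratio was 0.38, 0.56 and 0.23 in the same libraries, so most genes were tilted toward the 3′ end and most so in CUG300 + vehicle. The tilt of Enpp2 grew by 1.26 from CUG10 + vehicle to CUG300 + vehicle, against a median of 0.19 (quartiles -0.12 and 0.50), and 14 of the 465 genes grew by at least as much. Against CUG300 + CWG-cPIP the tilt of Enpp2 in CUG300 + vehicle was larger by 0.98, with a median of 0.27, and 81 of the 465 genes differed by at least as much. How far this tilt bears on the Enpp2 totals was not tested.

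The 4 Folr1 events described 1 exon of the 5′ untranslated region, on the minus strand of chromosome 7, and could not show a splicing difference. As a whole exon, of 154 nt (chr7:101868398-101868551) or 157 nt, it had 32 inclusion counts and 1 skipping count in CUG300 + vehicle, and 1 inclusion count in CUG300 + CWG-cPIP. The 154-nt form gave a PSI of 0.912 (0.634 to 0.998) in CUG300 + vehicle, and the 1 count of CUG300 + CWG-cPIP allowed any PSI from 0.008 to 1. As a choice between 3′ splice sites that adds 84 or 87 nt, the same exon had 8 counts for the long form and 7 for the short form in CUG300 + vehicle, a PSI of 0.349 (0.145 to 0.634) at the 84-nt choice. Both splice forms of the exon were therefore present in CUG300 + vehicle. The events of each kind share their reads, so they are not separate measurements.

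Other genes known from the choroid plexus were read from a list of 82, of which 20 had any event listed and 13 had at least 20 counts in CUG10 + vehicle and CUG300 + vehicle together. Of these 13, 7 were past 2-fold higher in CUG300 + vehicle and 1 was lower, with a median ratio of 2.35, beside 5.12% higher and a median log2 ratio of -0.47 over all genes. The 7 include Ttr and Enpp2, which were in view when the list was made and also enter the median. Calml4, a calmodulin-like protein of epithelia, went from 21.3 CPM (11.4 to 36.5) to 446 CPM (392 to 504) and was at 41.0 CPM (26.0 to 61.6) in CUG300 + CWG-cPIP. Rarres2, which encodes the secreted chemoattractant chemerin, was at 52.5, 282 and 76.7 CPM in library order. Ifi27, which is also an interferon-induced gene, was at 459, 1097 and 448 CPM. All 3 were highest in CUG300 + vehicle, with intervals apart from both other libraries.

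Slc16a8 and Slc4a2, a lactate transporter and an anion exchanger, were the other 2 past 2-fold higher, and Slc22a8, an organic anion transporter, was the 1 lower. These 3 have under 100 counts and are named after their values were seen. Slc16a8 had 1 count in CUG10 + vehicle, 39 in CUG300 + vehicle and 6 in CUG300 + CWG-cPIP. Its ratio of CUG300 + vehicle to CUG10 + vehicle was 41.9, with an interval of 7.09 to 1696. Slc22a8 had 24 counts in CUG10 + vehicle, 2 in CUG300 + vehicle and 20 in CUG300 + CWG-cPIP, opposite to Ttr and Enpp2. Between CUG300 + CWG-cPIP and CUG300 + vehicle, 7 of 13 list genes were past 2-fold lower and 1 was higher, with a median ratio of 0.408. Over all genes 6.7% were lower and 38.9% higher. These 7 again include Ttr and Enpp2, which were chosen for their levels and also enter the median. Between CUG300 + CWG-cPIP and CUG10 + vehicle, 0 of 12 were past 2-fold in either direction, with a median ratio of 0.983, beside 10.1% of all genes higher and 1.12% lower, which is too few genes to set the list apart.

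**Figure D4:**
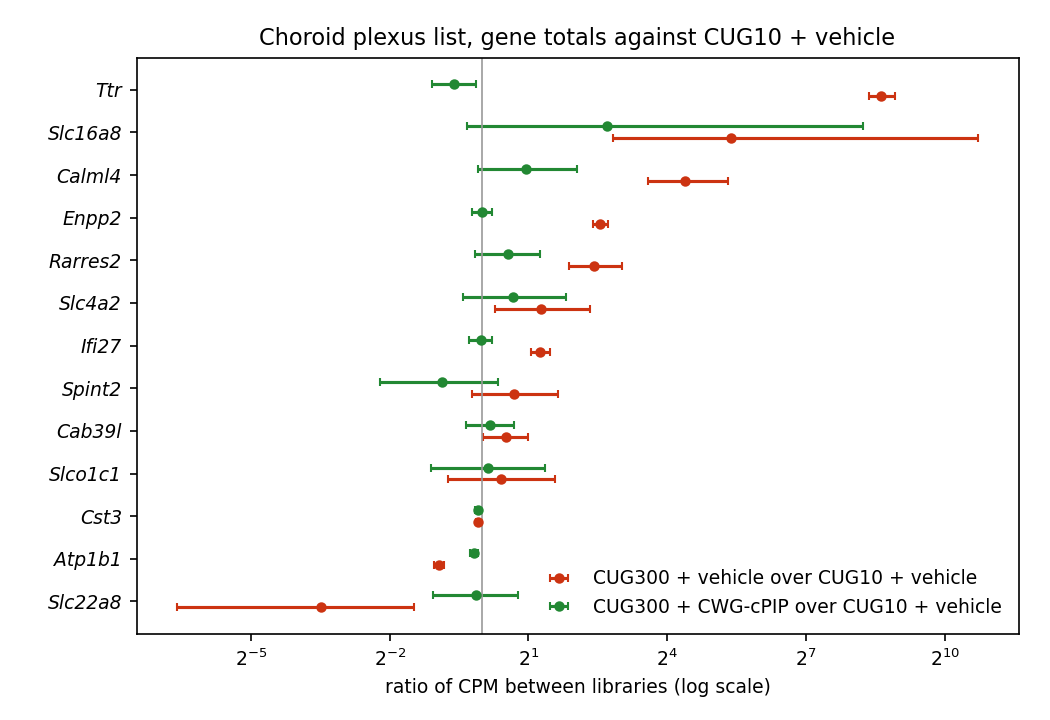
Ratio of CPM to CUG10 + vehicle (log axis) for the 13 genes of the choroid plexus list with at least 20 counts in CUG10 + vehicle and CUG300 + vehicle together, with 1 mouse per library. Points are ratios and bars are 95% intervals from the conditional binomial, for CUG300 + vehicle and for CUG300 + CWG-cPIP. Ttr, Slc16a8, Calml4, Enpp2 and Rarres2 lie farthest to the right in CUG300 + vehicle, and Slc22a8 lies to the left. The Slc16a8 ratios rest on 1 count in CUG10 + vehicle.

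The list also holds genes that many brain cells use. Atp1b1, a subunit of the sodium pump, was at 3713, 1939 and 3268 CPM in library order. Cst3, which encodes cystatin C, was at 12901, 12151 and 12039 CPM, a ratio of 0.942 between CUG300 + vehicle and CUG10 + vehicle that became 1.36 with size factors. Cab39l was at 107, 151 and 119 CPM, highest in CUG300 + vehicle, with a ratio to CUG10 + vehicle of 1.42 (1.02 to 1.99) that was 2.05 with size factors. Without Ttr and Enpp2 the 17 remaining genes with counts in all libraries summed to 17400, 16322 and 16163 CPM, a sum set largely by Cst3 and Atp1b1. Several genes that define the epithelium, among them Kl, Clic6, Aqp1, Kcne2, Kcnj13 and Prlr, had no listed event, so their levels were not analysed here, and the plexus factor Otx2 had 1, 4 and 2 counts.

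Few genes that act in the same pathways had enough counts to be compared. In the folate list of 23 genes, 1 could be compared between CUG300 + vehicle and CUG10 + vehicle, and it was past 2-fold in neither direction. This was Slc46a1, the proton-coupled folate transporter, at 57.4, 58.1 and 83.8 CPM in library order. In the lysophosphatidic acid list of 26 genes, Enpp2 was the 1 of 3 past 2-fold higher and none was lower. Over all genes 5.12% were higher and 28% lower, so 1 and 3 genes are too few to set either list apart. Enpp2 was also chosen for its level, so its call says nothing about the pathway. Ppap2a, a phosphatase that breaks this lipid down, was at 42.7, 79.3 and 169 CPM. It was lowest in CUG10 + vehicle and highest in CUG300 + CWG-cPIP, and Enpp2 was low in both. Agpat3, an acyltransferase, was at 176, 185 and 246 CPM.

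Of the thyroid hormone and retinol list of 31 genes, 9 could be compared between CUG300 + vehicle and CUG10 + vehicle. Ttr was the 1 past 2-fold higher and 3 were lower, with a median ratio of 0.663, beside 5.12% of all genes higher and 28% lower, so the lower count is near the background. The lower genes include the thyroid hormone receptor Thra, at 2679, 1166 and 3373 CPM in library order, and the receptor coactivator Ncoa1, at 87.0, 40.5 and 136 CPM. Crym, a cytosolic thyroid hormone binding protein, was at 346, 229 and 191 CPM. With size factors the ratios of CUG300 + vehicle to CUG10 + vehicle were 0.628 for Thra and 0.673 for Ncoa1, so both genes ran opposite to Ttr under both scalings.

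Markers of other cell types were counted between the same libraries, where 5.12% of all genes were past 2-fold higher in CUG300 + vehicle than in CUG10 + vehicle and 28% lower. Of 8 neuronal markers 0 were past 2-fold higher and 6 lower in CUG300 + vehicle than in CUG10 + vehicle, and the 8 summed to 17233, 6324 and 17167 CPM in library order. Of 10 microglial and immune markers 8 were higher and 0 lower, with sums over the 11 measured of 3322, 21018 and 5682 CPM. B2m, the light chain of class I histocompatibility molecules, was at 1639, 11208 and 3417 CPM. The neuronal and immune lists thus moved in opposite directions in the library in which Ttr, Enpp2 and Folr1 were high.

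Of 2 ependymal markers, from the ciliated cells that line the ventricles, 2 were higher and 0 lower. The 4 measured summed to 37.7, 116 and 49.9 CPM. The 2 were Ccdc153, with 8, 24 and 8 counts in library order, and Rsph1, with 6, 17 and 10. Both reached the minimum of 20 counts mainly through CUG300 + vehicle, which favours a higher call, so this count supports nothing about ependyma. The Rsph1 intervals of CUG10 + vehicle (3.61 to 21.4 CPM) and CUG300 + vehicle (17.4 to 47.9 CPM) overlapped. Oligodendrocyte markers, from the other cells known to make autotaxin, were past 2-fold higher in 0 and lower in 2 of 8, near the background, with sums of 9145, 7589 and 10138 CPM. Of 3 endothelial and mural markers 1 was higher and 0 lower, with sums over the 5 measured of 341, 976 and 674 CPM. Those sums were set largely by Ly6c1, at 249, 446 and 441 CPM, and Ly6a, at 39.4, 499 and 168 CPM. Pecam1 was at 44.3, 28.2 and 51.7 CPM, lowest in CUG300 + vehicle with overlapping intervals. The remaining measured ones were also lowest there, but had at most 10 counts over the libraries. Of 3 astrocyte markers 1 was higher and 1 lower, with sums over the 4 measured of 707, 1503 and 1332 CPM, set largely by Gfap. The 1 meningeal marker with enough counts, Ptgds, was at 11277, 4620 and 9102 CPM and so was lower in CUG300 + vehicle. The part of the cell makeup of each piece of tissue in the levels and the PSI of the 3 genes was not tested.

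The genes whose totals ran most like those of Ttr were Mx2, Oas1a, Bst2, Isg20 and H2-T23, by the distance between centred log2(CPM + 1) values over the 3 libraries, among 2078 genes with at least 100 counts. None was close, since the distances were 3.08 to 4.02 on that log2 scale. Bst2, for example, stood at 78.7, 3882 and 264 CPM in library order. Enpp2 had much closer neighbours, which were 1110017D15Rik, H2-D1, Fcer1g, 2410006H16Rik and Rarres2, at distances of 0.205 to 0.522. H2-D1, a class I histocompatibility gene, was at 320 CPM, 2131 CPM and 282 CPM. With 3 libraries such a likeness describes the order and spacing of 3 values.

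A low PSI in CUG300 + vehicle alone was shared with other genes. Among 2469 events with 20 or more counts per library whose PSI in CUG10 + vehicle and CUG300 + CWG-cPIP differed by less than 0.1, the Enpp2 75-nt exon ranked 12 by how far CUG300 + vehicle fell under the lower of the others. The 5 largest drops, of 0.653 to 0.356, were an alternative 3′ splice site of Mospd2 and skipped exons of Hivep2, Zbtb11, Zfp451 and Rusc2. In the first 4 of these the PSI was 1 in both other libraries, with 0.347, 0.577, 0.619 and 0.639 in CUG300 + vehicle. The skipped exons of Hivep2, Zbtb11, Zfp451 and Rusc2 are 836 to 5506 nt long, far longer than the 75 nt of the Enpp2 exon. The PSI of the Enpp2 exon was intermediate in the other libraries. The long exon form of Mospd2 spans 2522 nt, and the length of its alternative part was not taken.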

How the data were processed

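Total RNA of 3 hippocampi was sequenced from directional libraries. The submitters' notes name Trim Galore 0.6.6 for trimming, STAR 2.7.9a with RSEM 1.3.3 for alignment, and the build mm10. DESeq2 1.36.0, also named there, concerns gene expression, which is not analysed here. With rMATS the authors made 15 tables, 5 event types for each of 3 pairs of libraries, and deposited inclusion and skipping counts (junction and exon-body reads), the PSI as a fraction, and form lengths. The skipping form is 74 nt long, which fits shorter reads than the study's methods give for splicing libraries; this mismatch is unexplained and bears on PSI and on counts per nt, which use the deposited lengths. The p-values, FDR and PSI differences of the authors' own comparisons were deposited too and were not used.

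Events were joined across pairs by gene and coordinates. Counts of a shared library were identical in 14737 of 14737 cases, and PSI recomputed from the counts deviated by at most 0.0005. Library totals over events with counts in all libraries were 609546 for CUG10 + vehicle, 567697 for CUG300 + vehicle and, for CUG300 + CWG-cPIP, 560672, with 22, 13 and 24 counts at the median event. A gene total is the sum of counts over its events, in CPM of these totals, and covers only spliced segments with a listed alternative, so it is not a gene expression count and 1 read can enter 2 events.

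PSI intervals were Clopper-Pearson, those of PSI differences Newcombe, those of CPM exact Poisson and those of ratios conditional binomial, all at 95%. Reads had no molecular identifiers, so they cover counting error only. Because groups are 1 mouse each and the genes were chosen by their levels, no test was run. Past 2-fold refers to gene totals with at least 20 counts in both libraries together and 0.5 counts added to each. The PSI threshold of 0.15 is that of the study.

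The members, lists and tests were chosen with earlier results of these data known. Genes named beside the members had at least 100 counts on the choroid plexus and pathway lists, were among the 4 with the most counts of another marker list, or were the 5 nearest by the measures of likeness. A gene that this rule takes in is not reported here by name and stays in the counts. Skipped exon sequences came from GENCODE M21 transcripts, with 6147 of 6197 exons matched. Python 3.11.15, pandas 2.3.3, numpy 2.4.6, scipy 1.17.1 and matplotlib 3.10.9 were used, and the interval functions were checked on simulated data. Alternatives were other scalings, event choices, count minimums and a PSI without length correction.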

Additional observations from a re-analysis of the deposited data

How the results depend on the processing

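No paired analysis was possible because each group is 1 mouse and the result comes from no test. The direction turned for values whose intervals take in 1: the Enpp2 ratio of CUG300 + CWG-cPIP over CUG10 + vehicle, 0.991, was 1.07 from the event with the most counts and 1.14 from skipping counts, and size factors turned the inclusion ratio of the Enpp2 75-nt exon (0.907 to 1.31). Size factors also turned the Cst3 ratio of CUG300 + vehicle over CUG10 + vehicle, from 0.942 to 1.36. Here the unscaled interval, 0.912 to 0.973, did not take in 1. The 19 PSI differences turned in no case when taken as a plain share of inclusion counts, and all lay within their intervals. Median-of-ratios size factors gave ratios of CUG300 + vehicle over CUG10 + vehicle of 573 (Ttr) and 8.47 (Enpp2). Those of CUG300 + CWG-cPIP over CUG300 + vehicle were 0.000982 and 0.0999. For CUG300 + CWG-cPIP over CUG10 + vehicle the Enpp2 ratio was 0.847 (0.729 to 0.984), an interval that does not take in 1. For Enpp2 the event with the most counts alone gave 7.66 and 0.139 for the first 2 of these ratios, and skipping counts alone gave 7.73 and 0.147. Leaving the Ttr events out of the denominator moved none of 7 ratios past its interval, nor did the alternative 3′ splice site of Folr1 in place of its skipped exon, a choice made after seeing the data, as was the look along Enpp2. Skipping counts alone could not give a Ttr ratio, and a total over events listed in all 3 pairs was not run for Ttr or Folr1, which have no such event. With at least 50 counts 6.41% of genes were past 2-fold higher in CUG300 + CWG-cPIP than in CUG10 + vehicle. With at least 10 counts the shares of events past a PSI difference of 0.15 were 5.32% higher and 9.51% lower (CUG300 + vehicle minus CUG10 + vehicle), 11.1% and 5.34% (CUG300 + CWG-cPIP minus CUG300 + vehicle) and 7.55% and 6.46% (CUG300 + CWG-cPIP minus CUG10 + vehicle). With at least 50 counts those that moved were 1.04% and 3.11%, then 1.41% lower, then 1.99% and 1.59%. On the choroid plexus list, 0 genes were lower in CUG300 + vehicle than in CUG10 + vehicle at 50 counts, and those higher in CUG300 + CWG-cPIP than in CUG300 + vehicle were 2 at 10 counts and 0 at 50. Of the 5 genes most like Enpp2, 3 were shared at a minimum of 50 counts. The causes of these moves were not tested.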
